A study of Homo sapiens with 37 samples.

Results

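The Notch pathway genes of K562 cells were described in libraries with a disrupted ZBTB7A gene and in control libraries. The members were 10 named genes of the pathway among the 32055 rows of the table: the receptors NOTCH1, NOTCH2 and NOTCH3, the ligands JAG1 and JAG2, the target genes HES1, HEY1 and HEY2, and the nuclear proteins RBPJ and MAML1. All 10 were found by their Ensembl identifiers, and 8 had enough counts to be tested. K562 is an established human erythroleukemia line. The KO group held 26 libraries of cells electroporated with Cas9 and a gRNA against ZBTB7A, a zinc finger repressor of transcription, and the Control group held 11 libraries of cells given the same vector without a gRNA. In both groups, lines were grown from sorted single cells, so a line is 1 clone. The labels tie no library to a clone, gRNA or day, and p-values over libraries therefore measure only the spread between libraries, which may in part be technical.

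Notch receptors are membrane proteins that are cut when a ligand of the Jagged or Delta family on a neighbouring cell binds them. The freed intracellular domain enters the nucleus, binds the DNA-binding protein RBPJ together with a Mastermind coactivator such as MAML1, and switches on genes that include the HES and HEY repressors. In blood formation the pathway is best known for directing progenitors into the T cell lineage, and NOTCH1 is an oncogene of T cell leukemia.

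Bulk SCRB-seq reads the 3′ ends of poly(A) RNA and counts each captured molecule once by its unique molecular identifier (UMI). Totals ranged from 1070250 to 4270901 UMIs in the KO libraries and from 563235 to 4710809 in the Control libraries. Levels are given as log2 CPM (CPM being UMIs per 1000000 UMIs of the TMM-scaled library, with a prior count of 2), and 1 unit is a doubling. ZBTB7A itself had 62 to 314 UMIs in KO and 21 to 296 in Control libraries (log2 fold change 0.12, adjusted p = 0.331), which does not check the labels, since 3′ reads do not show a small edit in the coding sequence. Of the 13 K562 and erythroid markers in the table, all were tested, with a summed level of 3080 to 9943 CPM in KO and 4170 to 8780 CPM in Control libraries. Of the 13, 2 were called, ALAS2 and EPOR, both higher (10.2% of all genes tested were called, by the thresholds given below). By edgeR adjusted p alone, TAL1 was also higher (log2 fold change 0.39). TFRC, GATA1 and KLF1 were lower (-0.37, -0.19 and -0.22). Of the marker lists of other cell types only 6 genes had enough counts to be tested, and 5 were called, against 10.2% of all genes tested. A gene that is low in 1 group can enter the test through the group where it is high. The count of 5 is therefore not evidence about cell types. GP1BA, ITGAM and ESAM were higher, and CD33 and CD3D were lower. The defining markers PECAM1, CDH5, PF4, CD3E and PDGFRB were near 0, with at most 9 UMIs in a library. Other markers on these lists were present, such as RGS5 with up to 28 UMIs, ITGA2B with up to 41, SPI1 with up to 18, COL1A1 with up to 11 and CD3G with up to 10 UMIs in a library. The summed level of the endothelial list was 1.49 to 87.7 CPM in KO and 0.575 to 3.69 CPM in Control libraries, most of it ESAM, and that of the T cell list 1.65 to 30.6 against 13.98 to 72.6 CPM, most of it CD3D. The megakaryocyte list summed to 2.69 to 60.4 CPM in KO and 0.734 to 8.15 CPM in Control, the myeloid list to 39.2 to 102 against 82.3 to 112 CPM, and the mural and fibroblast list to 5.43 to 13.1 against 4.46 to 10.3 CPM. The part of these genes in the results below was not tested, and in bulk samples fewer cells of a type and less RNA per cell cannot be told apart.

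The libraries of a group were not alike. Average-linkage clustering of 8553 genes outside the pathway put the 26 KO libraries into 5 expression sets of 4, 6, 6, 5 and 4 libraries (KO sets 1 to 5), with the KO library of barcode GGCCAC standing alone. The Control libraries fell into 2 sets of 5, with the shallowest library, barcode GTTTAT at 563235 UMIs, standing alone. For Control, unlike KO, the number of sets was raised until 2 held several libraries. The number with the highest mean silhouette would have parted only GTTTAT from the rest. Pairs of libraries within a set differed by a median of 1.70 times the counting noise (chi-square per degree of freedom), and pairs from different sets of 1 group by 5.42 times. These sets come from the data and are not groups of the study, and whether a set holds the libraries of 1 clone was not tested. Members were left out of the clustering, but their levels by set are still given as a description, with no test. Each result was also computed with the counts summed over each set (6 KO against 3 Control sums), without the 2 lone libraries (5 against 2), and with the set as a random block.

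For orientation, the start regions of 4 members are shown as RefSeq gives them on GRCh38.p14, from 250 bases before the annotated start to 20 bases after it. They are NOTCH3 and HEY2, whose levels differed most between KO and Control, NOTCH1, whose level differed most between KO sets next to HEY1, and HES1, a textbook Notch target. The capitals mark TGGGAA, the core of the motif that RBPJ binds, and CACGTG and CACGCG, motifs of HES and HEY proteins, on either strand.
NOTCH3, chr19:15200976-15201245, minus strand: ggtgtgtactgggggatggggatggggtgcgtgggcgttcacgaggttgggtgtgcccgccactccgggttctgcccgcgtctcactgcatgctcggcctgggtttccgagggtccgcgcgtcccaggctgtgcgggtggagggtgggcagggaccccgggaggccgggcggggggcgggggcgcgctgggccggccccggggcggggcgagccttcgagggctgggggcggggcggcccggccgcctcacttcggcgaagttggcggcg
HEY2, chr6:125749382-125749651, plus strand: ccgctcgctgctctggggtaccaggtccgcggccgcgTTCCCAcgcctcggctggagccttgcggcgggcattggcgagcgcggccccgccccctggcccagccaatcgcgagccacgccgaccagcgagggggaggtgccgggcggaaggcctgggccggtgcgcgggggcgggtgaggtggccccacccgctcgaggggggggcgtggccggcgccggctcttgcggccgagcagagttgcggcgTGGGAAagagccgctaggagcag
NOTCH1, chr9:136546029-136546298, minus strand: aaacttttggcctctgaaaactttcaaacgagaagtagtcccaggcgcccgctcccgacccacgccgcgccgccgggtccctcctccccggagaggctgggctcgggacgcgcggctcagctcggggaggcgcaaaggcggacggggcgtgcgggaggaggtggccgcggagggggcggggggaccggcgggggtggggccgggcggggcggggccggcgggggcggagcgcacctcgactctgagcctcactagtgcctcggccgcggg
HES1, chr3:194135898-194136167, plus strand: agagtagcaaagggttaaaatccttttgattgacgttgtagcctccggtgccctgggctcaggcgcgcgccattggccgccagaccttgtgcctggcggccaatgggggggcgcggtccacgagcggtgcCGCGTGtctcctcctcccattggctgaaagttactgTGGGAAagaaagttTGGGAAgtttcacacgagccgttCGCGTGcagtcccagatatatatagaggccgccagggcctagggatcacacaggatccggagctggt
The table held 9 of the 10 members, without HEY1. Over the full 300 bases, TGGGAA occurred in HES1, with first bases at positions -84 and -70, and in HEY2, at -213 and -3. It was found in 24.3% of all 27305 promoters of this length. CACGCG occurred at -120 and -47 in HES1, at -236 in JAG2 and at +40 in JAG1, and in 11.4% of all promoters. CACGTG, present in 7.43%, was in none of the 9. Among the 8137 promoters of tested genes the shares were 21.3% for TGGGAA, 19.6% for CACGCG and 10.7% for CACGTG. The windows of NOTCH1 and NOTCH3 held none of the motifs, and were 77.0% and 78.3% G or C. No motif overlapped another. A match is a description of letters, not a bound site. The HEY2 start used by RefSeq lies at chr6:125749632, inside the gene as GENCODE draws it (chr6:125747664-125761269).

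Across all genes, KO was compared with Control by edgeR's quasi-likelihood test, and a gene was called when its Benjamini-Hochberg adjusted p was under 0.05 and it differed by more than 0.5 on the log2 scale in either direction. Of the 10661 genes tested, 1085 were called (10.2%), 709 higher (6.65%) and 376 lower (3.53%) in KO. Among the members, 5 of the 8 tested were called. NOTCH1, NOTCH3, HEY1 and HEY2 were higher and JAG2 was lower, whereas HES1, RBPJ and MAML1 were not called. The members were chosen with earlier results of these data known, so this count is not independent evidence about the pathway. NOTCH3 and HEY2, with at most 10 and 14 UMIs in a Control library, passed the count filter through the KO libraries, where they are high. The plot of levels by set shows each library.

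**Figure D1:**
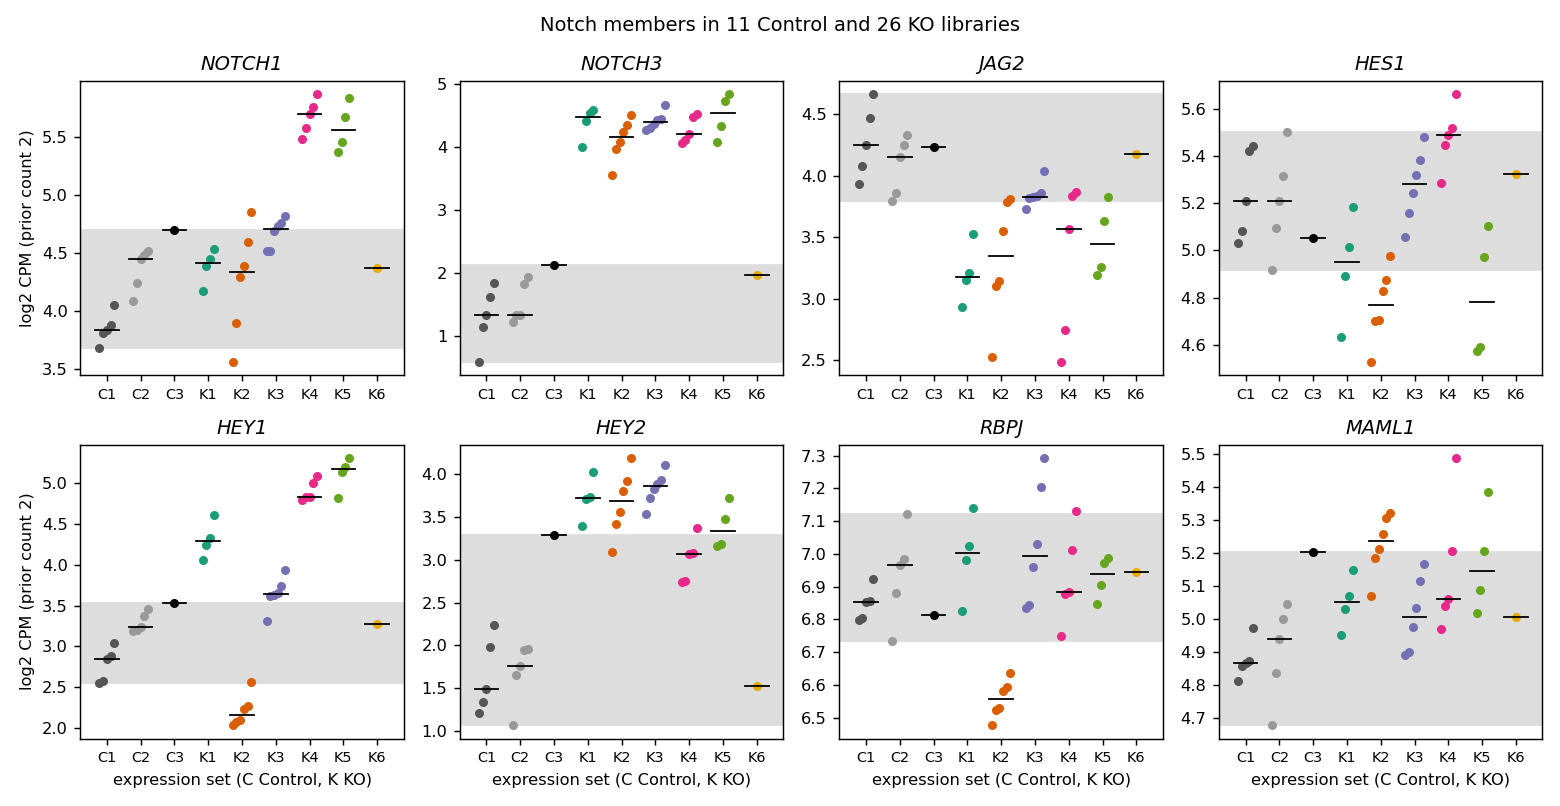
Level of each tested member (log2 CPM, vertical axis) in 11 Control (C1 to C3) and 26 KO (K1 to K6) libraries by expression set. A point is a library, a line a set median and the grey band the range of the Control libraries. NOTCH3 lies above the band in K1 to K5, NOTCH1 is highest in K4 and K5, and HEY1 lies below or at the bottom of the band in K2.

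NOTCH3, a receptor best known from the mural cells of blood vessels, had the largest log2 difference of the 8 tested members. It entered the test through the KO libraries, where it is high. Its gene lies at chr19:15159038-15200995 on the minus strand. Control libraries held 0.60, 1.34 and 2.13 log2 CPM (lowest, median and highest), from 2 to 10 UMIs each. KO libraries held 1.97, 4.34 and 4.83 log2 CPM, from 6 to 92 UMIs. Of the 26 KO libraries, 25 lay above the highest Control library, and the exception was GGCCAC, with 6 UMIs and 1.97 log2 CPM. The mean level rose from 1.49 ± 0.44 (SD, n = 11) to 4.23 ± 0.54 (SD, n = 26), and the fitted log2 fold change was 3.23 ± 0.20 (SE), or 9.39-fold (edgeR adjusted p = 8.91e-16).

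The level of NOTCH3 was similar in KO sets 1 to 5. The set medians were 4.48, 4.16, 4.40, 4.21 and 4.53 log2 CPM in KO sets 1 to 5, and the means of the sets lay 2.63 to 3.01 above the Control mean. Neighbours in this order did not differ beyond the spread within sets, whose SD was 0.14 to 0.35. Differences between the 5 sets made up 24.2% of the variance of NOTCH3 among these libraries, against a median of 48.7% over all tested genes. With counts summed by set, the log2 fold change was 3.13 ± 0.50 (SE, adjusted p = 0.0953), and without the 2 lone libraries it was 3.35 ± 0.18 (adjusted p = 0.00063). Over the alternatives run, the adjusted p of NOTCH3 ranged from 5.94e-47 to 0.0953.

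NOTCH1, the receptor that drives T cell fate, was higher in KO on average, with overlapping groups. The gene lies at chr9:136494433-136546048 on the minus strand. Control libraries held 3.68, 4.08 and 4.70 log2 CPM (lowest, median and highest; 14 to 99 UMIs) and KO libraries 3.56, 4.71 and 5.87 (17 to 162 UMIs). The groups overlapped. Of the 26 KO libraries, 13 exceeded every Control library and 1 lay below them all. The highest Control was the shallow library GTTTAT, and 16 KO libraries lay above the other 10. The log2 fold change was 0.85 ± 0.21 (SE), or 1.80-fold (edgeR adjusted p = 0.00207).

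By set, NOTCH1 separated into high and low levels. All 9 libraries of KO sets 4 and 5 lay far above every Control library, at 5.48 to 5.87 and 5.37 to 5.83 log2 CPM. KO set 3 held 4.52 to 4.82, with 3 of 6 libraries above the highest Control. KO sets 1 and 2 held 4.17 to 4.54 and 3.56 to 4.85, within or near the Control range, and GGCCAC held 4.37. The 2 Control sets also differed, at 3.68 to 4.05 and 4.08 to 4.52, without overlap. Differences between the 5 KO sets made up 85.4% of the variance of NOTCH1. Counts of NOTCH1 varied 15.2 times as much as counting noise across the KO libraries (chi-square per degree of freedom) and 1.55 times within sets.

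The call for NOTCH1 depended on how libraries were weighed. Summed by set, its log2 fold change was 0.77 ± 0.40 (SE, adjusted p = 0.474), without the lone libraries 0.93 ± 0.45 (adjusted p = 0.429), and with the set as a random block 0.69 ± 0.23 (adjusted p = 0.0453). Among the 20 libraries with an AT-rich barcode, 12 KO and 8 Control, it was 0.59 ± 0.23 (adjusted p = 0.0685), and 3 members and 10.4% of all genes were called there. None of KO set 5 and 2 libraries of KO set 4 have such a barcode. GC-rich barcodes could not be compared, since only 1 Control library has one. The adjusted p of NOTCH1 ranged from 2.52e-04 to 0.474 over the alternatives.

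NOTCH2, a receptor with broad roles in B cells and vessels, was barely detected. It had 0 to 4 UMIs in each group, 23 UMIs over the Control and 42 over the KO libraries, and was at 0 in 2 Control and 5 KO libraries. In a fit without a count filter its log2 fold change was 0.01 ± 0.36 (SE, adjusted p = 0.987), so a difference was not detectable at this depth.

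Among the ligands, JAG2 fell. JAG2 is a transmembrane ligand, and its gene lies at chr14:105140982-105168824 on the minus strand. Control libraries held 3.80, 4.23 and 4.66 log2 CPM (lowest, median and highest; 10 to 85 UMIs) and KO libraries 2.49, 3.60 and 4.17 (6 to 66 UMIs). No KO library lay above the highest Control and 16 of 26 lay below the lowest. The level fell by 0.68 ± 0.13 on the log2 scale (SE, edgeR adjusted p = 1.25e-04), from 4.18 ± 0.26 (SD, n = 11) to 3.48 ± 0.46 (SD, n = 26).

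JAG2 was lower in most KO sets, and its spread within sets was wide. Set medians were 3.18, 3.35, 3.83, 3.56 and 3.44 log2 CPM in KO sets 1 to 5, so KO set 3 was nearest to the Control level, and 1 of its 6 libraries lay below the lowest Control. GGCCAC held 4.17 log2 CPM, the highest of all KO libraries. KO set 4 alone ran from 2.49 to 3.87. Summed by set, the log2 fold change was -0.61 ± 0.22 (SE, adjusted p = 0.291), and with the set as a random block -0.62 ± 0.22 (adjusted p = 0.0627), so the call did not hold there. The adjusted p ranged from 1.24e-05 to 0.291 over the alternatives.

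JAG1, the other Jagged ligand, was close to the detection limit. It had 0 to 3 UMIs in Control and 0 to 6 in KO libraries, and was at 0 in 4 Control and 9 KO libraries. Without the filter its log2 fold change was 0.64 ± 0.48 (SE, adjusted p = 0.434).

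Of the targets, HEY2 rose the most, and it passed the count filter through the KO libraries. HEY2 is a basic helix-loop-helix repressor known from heart and vessel development, and its gene lies on the plus strand. Control libraries held 1.07, 1.76 and 3.29 log2 CPM (lowest, median and highest; 3 to 14 UMIs) and KO libraries 1.52, 3.55 and 4.19 (4 to 57 UMIs). Of the KO libraries, 18 of 26 lay above the highest Control, which was GTTTAT with 5 UMIs, and 25 lay above the other 10 Control libraries. The remaining KO library was GGCCAC, at 1.52 log2 CPM. The log2 fold change was 2.03 ± 0.22 (SE), or 4.08-fold (edgeR adjusted p = 1.38e-09).

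HEY2 was above the Control mean in KO sets 1 to 5, but unequally. KO sets 1, 2 and 3 had medians of 3.72, 3.68 and 3.86 log2 CPM, KO set 5 had 3.33 and KO set 4 had 3.06. The set means lay 1.19 (KO set 4) to 2.02 (KO set 3) above the Control mean. KO sets 1 to 3 did not differ from each other beyond their spread, and the libraries of KO sets 3 and 4 did not overlap. Differences between sets made up 58.1% of the variance. Without the lone libraries, the summed log2 fold change was 2.16 ± 0.28 (SE, adjusted p = 0.0235), and with all 6 KO and 3 Control sums it was 1.77 ± 0.52 (adjusted p = 0.237). Over the alternatives the adjusted p ranged from 4.09e-18 to 0.237.

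HEY1, a close relative of HEY2, had the largest share of its variance between sets of the 10 members. Its gene lies at chr8:79762371-79767857 on the minus strand. Control libraries held 2.55, 3.18 and 3.54 log2 CPM (lowest, median and highest; 6 to 38 UMIs) and KO libraries 2.03, 3.996 and 5.31 (4 to 88 UMIs). KO libraries lay on both sides of the Control range, 18 above the highest and 5 below the lowest of 26. The log2 fold change was 1.22 ± 0.32 (SE), or 2.33-fold (edgeR adjusted p = 0.00359).

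The levels of HEY1 followed the sets closely. KO set 5 held 4.82 to 5.31 log2 CPM, KO set 4 held 4.80 to 5.09, KO set 1 held 4.05 to 4.62, KO set 3 held 3.31 to 3.94 and KO set 2 held 2.03 to 2.57. In this order KO sets 5 and 4 overlapped, and each further set lay below the one before it without overlap. In KO set 2, 5 of 6 libraries were below every Control, with 4 to 8 UMIs each over the set. The 2 Control sets did not overlap either, at 2.55 to 3.04 and 3.18 to 3.46. Differences between sets made up 97.4% of the variance of HEY1 among the KO libraries. Its counts varied 14.2 times as much as counting noise across KO libraries and 0.73 times within sets.

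The call for HEY1 was not kept in every fit. Summed by set, its log2 fold change was 1.20 ± 0.66 (SE, adjusted p = 0.499), and without the lone libraries 1.36 ± 0.73 (adjusted p = 0.468). Thinned to the smallest library it was 0.98 ± 0.37 (adjusted p = 0.0593), where 4 members and 8.46% of all genes were called, and among AT-rich barcodes 0.89 ± 0.39 (adjusted p = 0.0972). With the set as a random block it was 0.98 ± 0.33 (adjusted p = 0.0444). Over the alternatives the adjusted p ranged from 8.89e-06 to 0.499.

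HES1, a repressor and widely used readout of Notch activity, was not called. Its gene lies at chr3:194136148-194138732 on the plus strand. Control libraries held 4.92, 5.21 and 5.50 log2 CPM (lowest, median and highest; 18 to 167 UMIs) and KO libraries 4.53, 5.08 and 5.66 (27 to 158 UMIs). The groups overlapped, with 2 KO libraries above and 9 below the Control range. The log2 fold change was -0.11 ± 0.10 (SE, edgeR adjusted p = 0.444). Sets differed here too: KO set 2 held 4.53 to 4.98 and KO set 4 held 5.28 to 5.66, without overlap, and 74.1% of the variance lay between sets.

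In the nuclear complex, neither member passed both thresholds. RBPJ, the DNA-binding protein of the pathway, held 6.73, 6.86 and 7.12 log2 CPM in Control (lowest, median and highest) and 6.48, 6.89 and 7.29 in KO. The fitted log2 difference was 0.0045 ± 0.066 (SE, edgeR adjusted p = 0.976), with its sign depending on the settings. All 6 libraries of KO set 2, at 6.48 to 6.64, were nonetheless below the lowest Control library, and no other KO library was. MAML1, a Mastermind coactivator, held 4.68, 4.88 and 5.20 in Control and 4.89, 5.08 and 5.49 in KO. The fitted difference of 0.22 ± 0.06 (SE, edgeR adjusted p = 0.00363) passed the test over libraries but not the limit on the fold change. Summed by set, MAML1 did not pass the edgeR test either (adjusted p = 0.515, or 0.333 without the lone libraries). With the set as a random block the limma-voom adjusted p was 0.224.

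Receptors and targets were then set side by side among the KO libraries. Because the libraries fell into separate sets, no correlation between receptors and targets over all 26 is given. Of the 13 KO libraries with NOTCH1 above the highest Control, 11 also had HEY1 above it (84.6% of the 13, and 61.1% of the 18 with high HEY1). HEY2 was above it in 7 (53.8% of the 13). Over all 26 KO libraries, 18 were above it for HEY1 and 18 for HEY2. All 5 libraries of KO set 4 and all 4 of KO set 5 were high in both NOTCH1 and HEY1. Libraries of a set are alike, so these counts are a description and not independent cases. The highest Control library for these genes was the shallow GTTTAT. Against the other 10 Control libraries, 16 KO libraries were high in NOTCH1. Of these, 13 were high in HEY1 (81.2%), as were 18 of all 26 KO libraries (69.2%). All 16 were high in HEY2 (100%), a level that 25 of 26 KO libraries passed. With GTTTAT included, all 18 libraries with high HEY2 and all 18 with high HEY1 had high NOTCH3, which 25 of 26 libraries had. The plot of HEY1 against NOTCH1 shows how the sets lie.

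**Figure D2:**
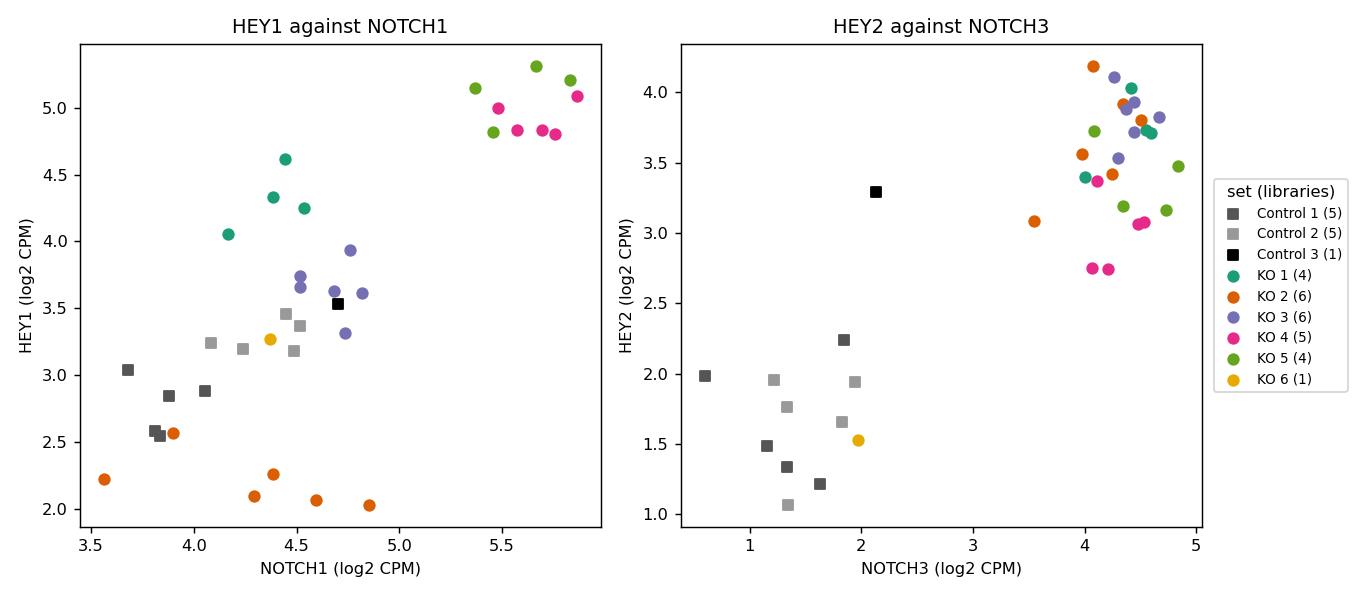
HEY1 against NOTCH1 (left) and HEY2 against NOTCH3 (right), log2 CPM on both axes, 1 point per library (squares Control, circles KO) coloured by expression set. KO sets 4 and 5 are high in both NOTCH1 and HEY1, KO set 1 has raised HEY1 at a NOTCH1 level of 4.17 to 4.54, and the KO library GGCCAC (KO 6) lies among the Control libraries in both panels.

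NOTCH1 and HEY1 were both highest in KO sets 4 and 5, and both were lower in Control set 1 than in Control set 2. KO sets 1 and 3 were ordered differently by the 2 genes. Their NOTCH1 medians were 4.42 and 4.71 log2 CPM, whereas their HEY1 medians were 4.29 and 3.64. KO set 2 had the lowest median of the KO sets in both genes. Its NOTCH1 median of 4.34 was close to that of KO set 1, but its HEY1 median was 2.16. HEY2 ran the other way from HEY1 in KO set 4, the lowest in HEY2 and among the highest in HEY1. HES1 was highest in KO set 4, at a median of 5.49, but low in KO set 5, at 4.78, although NOTCH1 was high in both.

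Within sets, none of the relations tested between receptors and targets passed the correction. Only KO sets 2 and 3 held 6 libraries, and 8 pairs of genes were tested in each by exact two-sided permutation tests over all pairings, whose smallest possible p is 0.00278. Pearson's r ranged from -0.80 to 0.87 over the 16 tests and Spearman's rho from -0.77 to 0.77. The largest r was that of NOTCH1 and HEY2 in KO set 3 (r = 0.87, exact permutation p = 0.0208, adjusted p = 0.333; rho = 0.77, exact permutation p = 0.103, adjusted p = 0.436), and without the 2 libraries farthest from the median of NOTCH1 it was 0.59. NOTCH3 and HEY1 in KO set 2 had r = -0.80 (exact permutation p = 0.0611, adjusted p = 0.439; rho = -0.54, exact permutation p = 0.297, adjusted p = 0.528), which was 0.03 without such 2 libraries. With 6 libraries and 16 tests, a single pair could pass the correction only at about that smallest p. Counts of HEY1 also varied within sets by no more than counting noise (0.73 times), with 4 to 8 UMIs in KO set 2. These tests therefore could not decide whether receptors and targets vary together within a set.

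The fits that use the expression sets are drawn beside the fit over libraries in the plot of fold changes. Only the sums take a set as the unit. Over all genes the sums by set gave 1 call among 14717 genes (0.00679%), RFLNB (named after its value was seen), although 1806 had an unadjusted p below 0.05. Of the members, 0 were called there and 3 had an unadjusted p below 0.05. Without the lone libraries 75 of 15389 genes were called (0.487%), NOTCH3 and HEY2 among them. The random block keeps each library as a sample and uses a single correlation within sets for all genes, estimated at 0.413. With it, 636 genes (5.97%) and 4 members, NOTCH1, NOTCH3, HEY1 and HEY2, were called. Differences between KO sets made up 85.4% of the variance of NOTCH1 and 97.4% of that of HEY1. For both genes the p-values of the random block may therefore be too small.

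**Figure D3:**
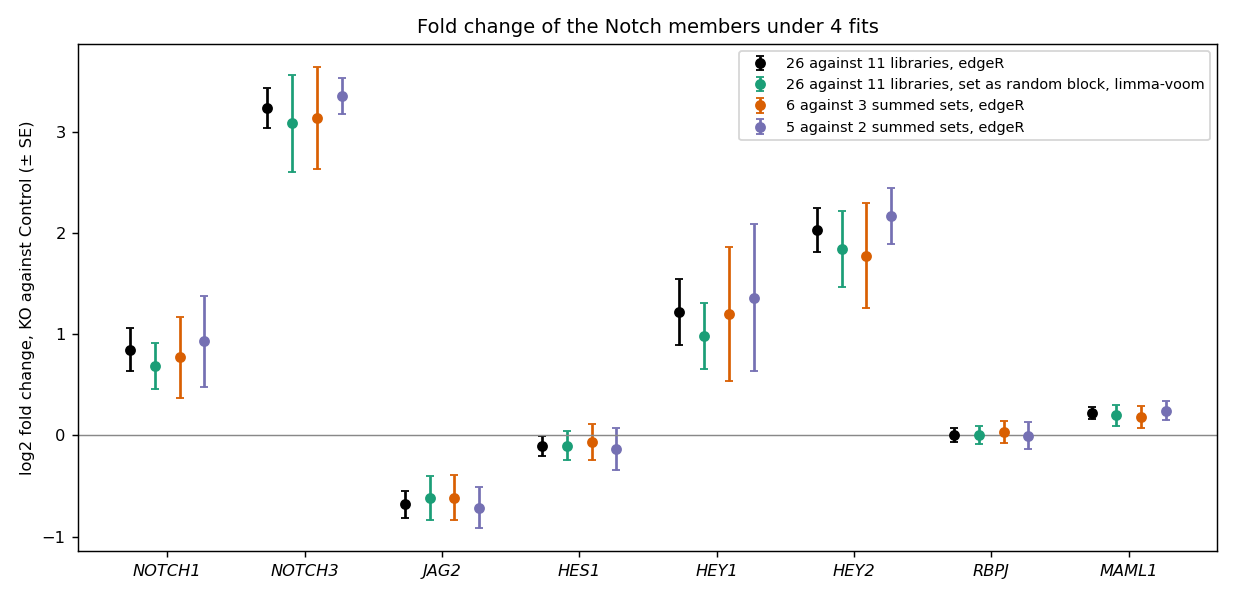
Log2 fold change of KO against Control (± SE, vertical axis) of the 8 tested members under 4 fits: edgeR over 26 and 11 libraries, limma-voom with the expression set as a random block, and edgeR over counts summed by set with and without the 2 lone libraries. The error of HEY1 ranges from 0.32 to 0.73, while NOTCH3 stays between 3.08 and 3.35.

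The rest of the pathway was read from lists of 78 further genes, of which 75 were in the table and 51 were tested. Of these, 8 were called (15.7%, against 10.2% of all genes), 4 higher and 4 lower in KO, and their median log2 fold change was 0.037, against -0.0046 over all genes. By adjusted p alone, 19 passed (37.3%, against 33.8% of all genes). The sums by set called 0 of the 51, with or without the lone libraries. The random block called 5, FURIN, MAML2, MAML3, TRIB2 and DLK1, so that TLE4, MYC, GATA2 and CDKN1A were not called there.

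Among other receptors and ligands, 0 of 2 tested genes were called. DLK1, a noncanonical ligand of the Delta family, had a log2 fold change of 0.77 ± 0.37 (SE, adjusted p = 0.0989), with 5.20, 5.91 and 8.94 log2 CPM in Control and 7.78, 8.14 and 9.62 in KO libraries (lowest, median and highest). The Control libraries split widely, at 5.41 to 5.91 in Control set 1 and 8.41 to 8.94 in Control set 2. All KO libraries lay above Control set 1. KO sets 1, 2, 4 and 5, at 7.78 to 8.31, lay below Control set 2. KO set 3, at 9.26 to 9.62, lay above it, and GGCCAC, at 8.85, within it. With the set as a random block the difference was 1.43 ± 0.34 (adjusted p = 0.00305), but summed by set it was 1.05 ± 0.73 (adjusted p = 0.604), and without the lone libraries 0.64 ± 0.78 (adjusted p = 0.764).

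Of the 4 tested genes of glycosylation and folding 1 was called (25%, against 10.2% of all genes tested). FURIN, the protease that makes the first cut of Notch in the Golgi, rose by 0.58 ± 0.11 on the log2 scale (SE, edgeR adjusted p = 7.06e-05), most in KO set 2, at 7.15 to 7.32 log2 CPM against 5.73 to 6.52 in Control libraries. Without KO set 2 its difference was 0.42, under the limit. POGLUT1, which adds glucose to Notch, had 0.19 ± 0.07 (adjusted p = 0.0387). Of the 8 cleavage genes 0 were called. APH1A, a subunit of the γ-secretase that frees the intracellular domain, had a difference of 0.20 ± 0.03 (SE, adjusted p = 3.01e-05). In endocytosis and turnover 0 of 9 were called, and NUMB, an inhibitor of Notch, had 0.36 ± 0.09 (adjusted p = 0.00204).

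Of the 7 nuclear coactivators tested, 2 were called (28.6%, against 10.2% of all genes tested), in opposite directions. MAML3 rose by 1.06 ± 0.13 on the log2 scale (SE, edgeR adjusted p = 1.82e-08), with 23 of 26 KO libraries over every Control library. MAML2 fell by 1.11 ± 0.19 (adjusted p = 2.33e-05), with 23 of 26 below the lowest Control. Summed by set, MAML3 had 1.03 ± 0.23 (SE, edgeR adjusted p = 0.168) and MAML2 -0.79 ± 0.47 (adjusted p = 0.539). Without the lone libraries they had 1.07 ± 0.27 (adjusted p = 0.158) and -1.21 ± 0.33 (adjusted p = 0.188). GGCCAC had the highest MAML2 level of all libraries, 4.98 log2 CPM, but its MAML3 level, 4.25, was above every Control. KO set 4 kept MAML2 at 3.78 to 4.16, overlapping the Control range of 4.07 to 4.91, while KO set 3 was lowest, at 2.26 to 3.20. KAT2A, an acetyltransferase, had -0.30 ± 0.07 (adjusted p = 5.97e-04).

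Of the 14 corepressors tested, 1 was called (7.14%, against 10.2% of all genes tested). TLE4, a Groucho corepressor, rose by 1.47 ± 0.37 on the log2 scale (SE, edgeR adjusted p = 0.00241), and its libraries fell into high and low levels. KO sets 1 to 4 held 4.09 to 4.88 log2 CPM, whereas KO set 5 held 0.51 to 2.10 and GGCCAC 1.76, and Control sets 1 and 2 held 3.28 to 3.69 and 0.72 to 1.68. With the set as a random block the difference of TLE4 was 1.53 ± 0.52 (adjusted p = 0.0528), and summed by set 1.25 ± 0.91 (adjusted p = 0.617), or 1.47 ± 0.92 without the lone libraries (adjusted p = 0.534). Its paralog TLE2 had 0.40 ± 0.12 (adjusted p = 0.00677).

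Of 7 further target genes tested, 4 were called (57.1%, against 10.2% of all genes tested), and 3 of them were lower. The list was chosen with earlier results of these data known, so this share is not independent evidence. MYC, a growth-promoting transcription factor and a NOTCH1 target in T cell leukemia, fell by 0.50 ± 0.12 (SE, edgeR adjusted p = 0.00188), which is at the limit of the call. Leaving out any 1 of 19 libraries put it under that limit, at differences down to -0.46. KO set 2 held 8.14 to 8.45 log2 CPM and KO set 3 held 9.19 to 9.59, against 8.99 to 9.73 in Control libraries. GATA2 and TRIB2, a blood stem cell factor and a pseudokinase, fell by 0.53 ± 0.07 (adjusted p = 1.42e-07) and 0.59 ± 0.08 (adjusted p = 1.79e-07), each with 24 of 26 KO libraries below the lowest Control. GATA2 fell under the limit on the fold change with the random block (-0.488) and without KO set 2 (-0.479) or KO set 3 (-0.485), at adjusted p up to 2.70e-04 in these 3 fits. Summed by set, GATA2 had -0.47 ± 0.16 (SE, edgeR adjusted p = 0.281) and TRIB2 -0.47 ± 0.16 (adjusted p = 0.287). Without the lone libraries they had -0.52 ± 0.13 (adjusted p = 0.157) and -0.62 ± 0.17 (adjusted p = 0.192). CDKN1A, the cell cycle inhibitor p21, rose by 0.81 ± 0.29 (adjusted p = 0.0296) and was highest in KO sets 4 and 5, at 5.001 to 5.32 and 5.05 to 5.28, the sets with high NOTCH1. Its call was lost without any 1 of 3 libraries of Control set 1 (that with barcode AAAGTT, that with AAGATT or that with TTGAAA), with adjusted p from 0.0516 to 0.0559. It was also lost without KO set 4, at 0.53 ± 0.28 (adjusted p = 0.143), without KO set 5, at 0.61 ± 0.28 (adjusted p = 0.0946), by limma-voom, at 0.55 ± 0.30 (adjusted p = 0.148), among AT-rich barcodes (adjusted p = 0.196) and with the random block (adjusted p = 0.322). Over the alternatives its adjusted p ranged from 5.34e-04 to 0.569. HES6, a relative and antagonist of HES1, had -0.40 ± 0.08 (adjusted p = 2.47e-04). The plot of pathway genes by role gives all 51.

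**Figure D4:**
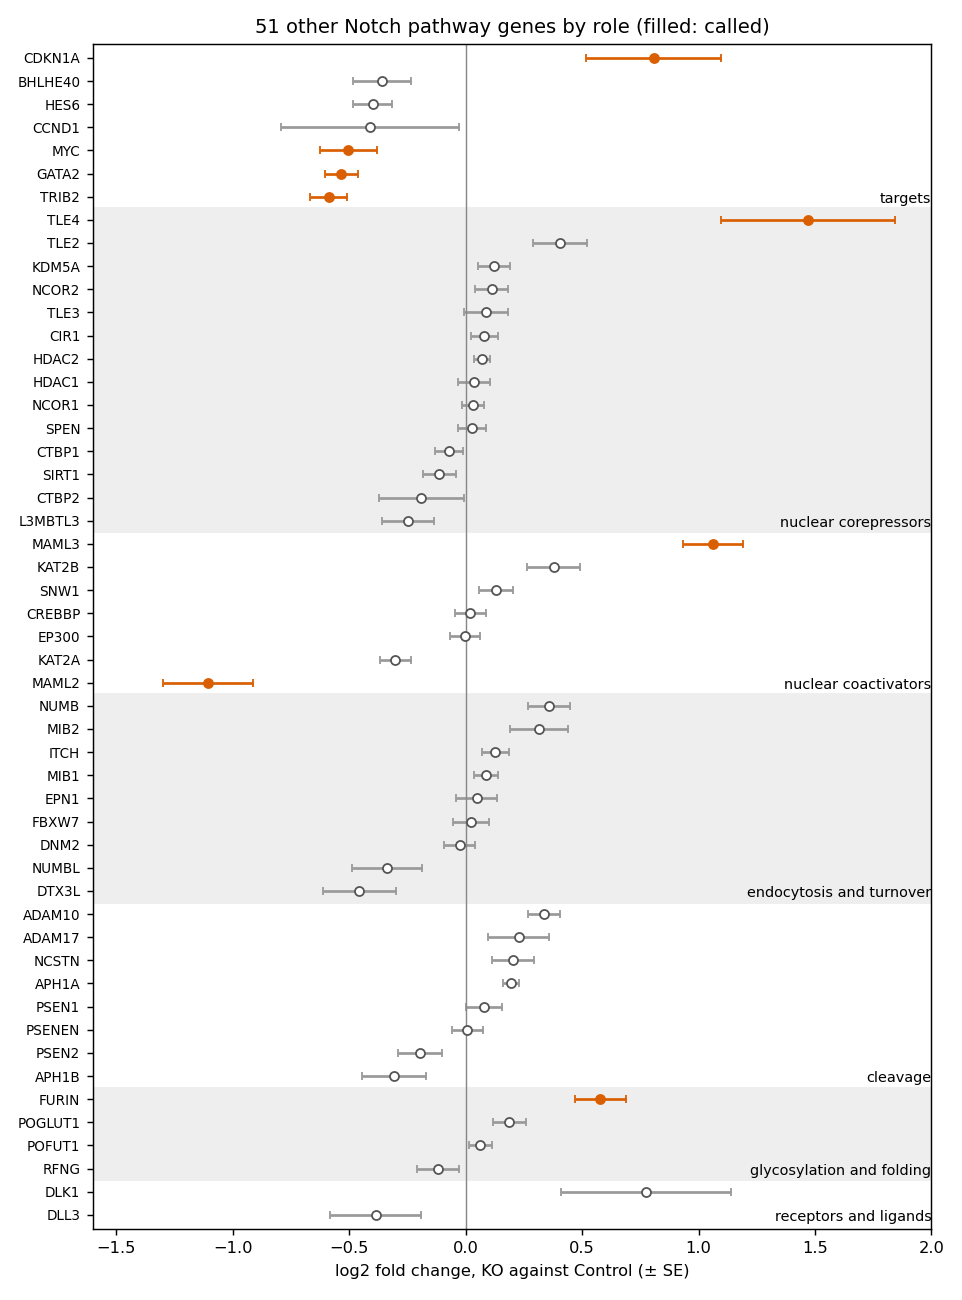
Log2 fold change of KO against Control (± SE, horizontal axis) of the 51 other pathway genes tested, grouped by role, from edgeR over 26 KO and 11 Control libraries. Filled points are the 8 called genes: FURIN, MAML3, TLE4 and CDKN1A above 0, and MAML2, MYC, GATA2 and TRIB2 below 0.

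The genes whose levels over the 26 KO libraries were most like those of a member were found among 8604 tested genes (8605 for HEY2) with a mean of at least 10 CPM. They were MKNK2, CCPG1 and PHLDA1 for NOTCH1 (r = 0.92, 0.88 and 0.88) and UTRN, UBASH3B and NTS for HEY1 (r = 0.95, 0.94 and 0.94). For NOTCH3 they were PTPRG, TRIM71 and ZNF853 (r = 0.83, 0.77 and 0.76), and for HEY2 IQSEC1, SMARCA1 and ITM2A (r = 0.81, 0.80 and 0.80). These values describe likeness over libraries that differ in set, depth and barcode. The set means were then taken out over the libraries of KO sets 1 to 5, without GGCCAC. There r was 0.77 and 0.72 for MKNK2 and PHLDA1 with NOTCH1, and from -0.12 to 0.49 for the other 10. GGCCAC was the lowest KO library in NOTCH3 and HEY2, and how much of the fall in r came from leaving it out was not tested.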

How the data were processed

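Bulk SCRB-seq libraries of K562 cells, 26 KO and 11 Control, were analysed from 1 table of UMI counts per gene, deposited by the authors without normalization. Per the labels, reads were aligned with STAR 2.6.0a to GRCh38 with Ensembl 84 annotation and counted with zUMIs, for which neither version nor strand setting is given in the sources used here. Library totals of 563235 to 4710809 UMIs limit precision for genes with few UMIs.

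Here, edgeR 4.0.16 (R 4.3.3) was run on all 32055 genes with filterByExpr (10661 kept), TMM scaling and a robust quasi-likelihood fit, and p-values were adjusted over all genes kept. Levels are log2 CPM with a prior count of 2. Members were found by Ensembl identifier, and positions are GENCODE's on GRCh38. Alternatives used limma 3.58.1 (voom), DESeq2 1.42.0, other scalings and filters, barcode class, thinning to the smallest total, and each library left out. Fits by expression set were added after seeing the data. Sets came from average-linkage clustering (1 minus Pearson's r, genes of at least 10 CPM), at the highest mean silhouette for KO (6 sets, 0.539) and at 3 for Control (0.437, against 0.458 at 2). For Control, 3 was the smallest number that gave 2 sets of several libraries. A pooled correlation over the KO libraries had been planned and was replaced by exact tests within sets, since the libraries formed clusters. The genes named are the members, the called genes of each pathway list and the uncalled one of smallest p, marker genes on which a count turns, the 3 genes most like NOTCH1, NOTCH3, HEY1 and HEY2, and called genes starting within 200 kb of NOTCH1, NOTCH3, HEY2 or JAG2. The members and lists were chosen with earlier results of these data known. The edgeR, limma-voom and DESeq2 fits were tested on simulated counts without expression sets, and the permutation test on random values. The clustering, the fits by set and the motif search were not tested in this way.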

Additional observations from a re-analysis of the deposited data

How the results depend on the processing

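In the main test 1085 genes, 5 members and 8 other pathway genes were called. Over all genes the count was 1720 with every gene of at least 1 count, 672 with a mean of at least 10 CPM, 636 with the expression set as a random block, 1 with counts summed by set, and 75 with the lone libraries also left out. Of the members, 3 were called among AT-rich barcodes (HEY2, JAG2 and NOTCH3), 0 in the sums by set and 2 without the lone libraries. Of the other pathway genes, 0 were called in either sum, 5 with the random block, 4 without KO set 2 and 19 by adjusted p alone. The sums hold fewer samples, and the cause of the other changes was not tested. Leaving out 1 library gave 1044 to 1126 genes, 5 members and 6 to 8 other pathway genes. Directions of the 16 named members and pathway genes tested were kept in every alternative, with the exception of RBPJ. Its difference was -0.0028 by limma-voom, -0.0063 with every gene of at least 1 count, -0.0041 with barcode class, -0.090 among AT-rich barcodes, -0.0018 without the shallowest library, -0.0029 in the sums without lone libraries, -0.016 without KO set 1, -0.037 without KO set 3 and -0.010 to 0.035 with 1 library left out. HEY2 has no value under the filter of 10 CPM. Correlations among AT-rich barcodes or with 1 library left out were not run, since fewer than 6 libraries would remain in a set. No paired analysis was possible because the labels give no replicate numbers, only barcodes. Depth limits NOTCH2 and JAG1, at no more than 6 UMIs in a library.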

Other observations

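Genes starting within 200 kb of the start of 4 members were counted. Around NOTCH1, 1 of 10 tested genes was called, around HEY2 1 of 2, around NOTCH3 0 of 3 and around JAG2 0 of 5, which is 2 of 20 in all (10%, against 10.2% of all genes tested). That share is the background, and the 2 genes are given as values only. The gene called near NOTCH1 was EGFL7, a secreted protein of the vessel wall, 113 kb away, which rose by 0.79 ± 0.089 on the log2 scale (SE, edgeR adjusted p = 6.32e-09). Control libraries held 6.35, 6.78 and 7.04 log2 CPM (lowest, median and highest) and KO libraries 6.54, 7.55 and 7.89, and the lowest KO library was again GGCCAC. EGFL7 was high in KO sets 1 and 2 as well, at medians of 7.66 and 7.69, where NOTCH1 was within or near the Control range.

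HEY2-AS1, a long noncoding RNA that starts 1.53 kb from HEY2, rose by 0.89 ± 0.15 (SE, edgeR adjusted p = 1.33e-05). Control libraries held 2.28, 2.71 and 3.03 log2 CPM and KO libraries 2.37, 3.49 and 3.95, and GGCCAC held 2.46. The strand setting of the counting is not given in the sources used here, so reads of HEY2 and HEY2-AS1 may not be told apart where they overlap.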
